A study of Mus musculus with 4 samples.

Results

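The urea cycle and mitochondrial ammonia genes examined here were Cps1, Otc, Ass1, Asl, Arg1, Nags, Slc25a15, Slc25a13, Gls2 and Glud1, chosen by name. All 10 were found by symbol among the 55487 gene identifiers of the count tables, and all 10 were among the 14411 genes tested. Liver polyA RNA came from 4 female mice on the FVB background, aged 11 weeks and kept on standard chow, with 2 PA and 2 WT mice. The labels give the PA mice as hypomorphic Pcca-/- (A138T), and WT mice as wild type; which promoter or cell type drives the mutant protein is not given in the sources used here. Propionyl-CoA carboxylase, whose alpha subunit comes from Pcca, is the enzyme lost in human propionic acidemia, a disease in which blood ammonia can rise. The comparison asks how the transcripts of nitrogen disposal differ between PA and WT liver. The design text calls the replicates biological.

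The urea cycle turns ammonia and bicarbonate into urea. NAGS makes N-acetylglutamate, the obligate activator of CPS1, and CPS1 and OTC work inside the mitochondrion of the hepatocyte. Citrulline then leaves the mitochondrion, and ASS1, ASL and ARG1 complete the cycle in the cytosol. The carriers SLC25A15 and SLC25A13 move ornithine and aspartate across the inner mitochondrial membrane. GLS2 and GLUD1 release ammonia from glutamine and glutamate in the matrix. Propionyl-CoA is known from rat liver to inhibit NAGS. The cycle is most active in periportal hepatocytes, while glutamine synthetase takes up remaining ammonia around the central vein.

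Gene counts summed to 25990553 and 30110400 in the PA libraries and to 29627033 and 25575016 in the WT libraries. Values below are CPM, STAR counts divided by TMM-scaled library size, unless stated, and log2 fold changes are PA over WT from the edgeR quasi-likelihood test, with p-values adjusted by Benjamini-Hochberg over all tested genes and a threshold of 0.05. The lowest member count in any library was 988 (Nags) and the highest 199188 (Cps1), so no member rested on few counts. The PA libraries differed more from each other than the WT libraries did, with a chi-square per degree of freedom of 135 for the PA pair and 46.3 for the WT pair. Pcca itself was at 34.2 and 47.4 CPM in PA and at 60.3 and 58.9 CPM in WT (log2 fold change -0.55, edgeR adjusted p = 0.398). Mutant and normal transcript are not told apart in such counts, so this is a limited check of the labels. In bulk liver, fewer cells of a type and less RNA per cell cannot be told apart.

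Transcripts of Cps1, Ass1 and Asl were about 1.7 to 2.1 times as abundant in PA as in WT liver, and Otc was lower in both PA livers. None of these differences passed the adjusted threshold in edgeR. Of the 10 genes, 0 were called by edgeR, against 0.812% of all tested genes (0.264% higher and 0.548% lower), and 0 by limma-voom, against 0.604%. DESeq2 called 2 of 10 higher, Cps1 and Ass1, against 1.22% of all genes called higher and 1.62% called lower by DESeq2. With no filter on low counts, edgeR called the same 2 (adjusted p = 0.0102 and 0.0360), against 1.7% of all genes called higher. At an edgeR unadjusted p under 0.05, 3 of 10 were higher and 0 lower, against 5.88% higher and 5.93% lower among all tested genes. Both PA libraries lay above both WT libraries for 5 of the 10 genes, against 21.3% of tested genes, and below for 1 of the 10, against 21.9%. The median log2 fold change of the 10 genes was 0.25, beside 0.0049 for all tested genes. It was 0.11 without PA replicate 1 and 0.42 without WT replicate 1.

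**Figure D1:**
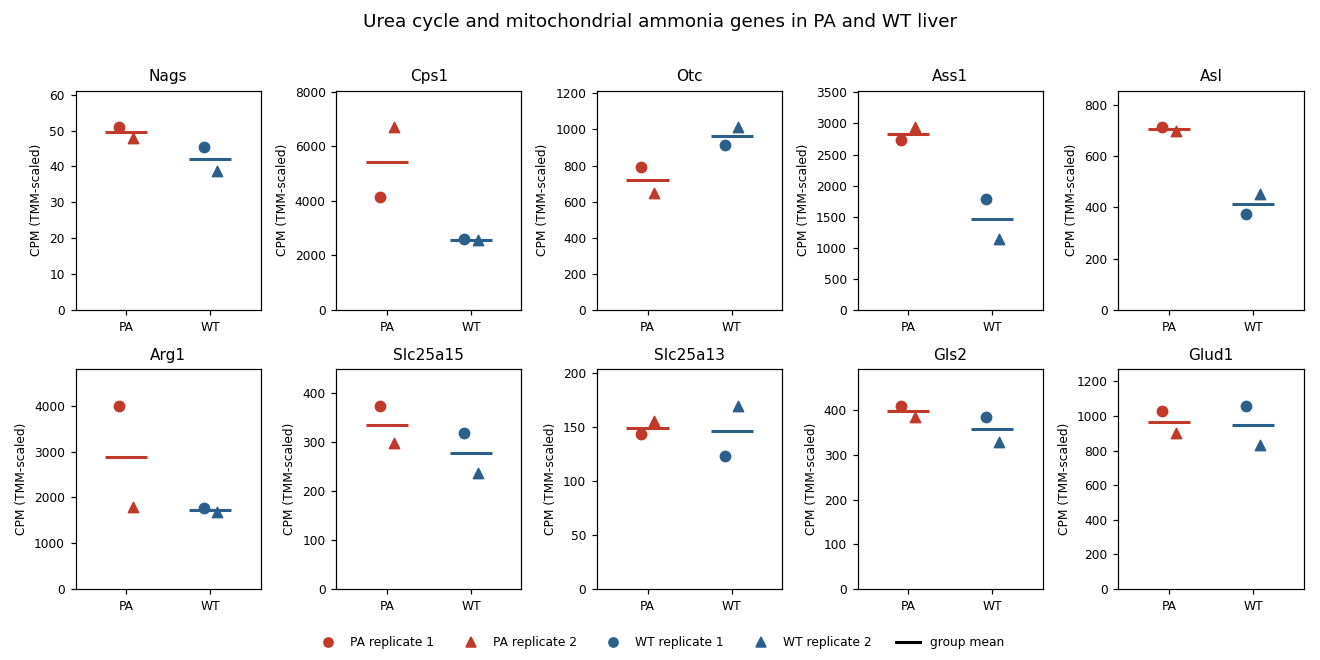
CPM on TMM-scaled library sizes (vertical axes from 0, 1 panel a gene) of the 10 urea cycle and ammonia genes, with PA libraries in red and WT libraries in blue; circles are replicate 1, triangles replicate 2 and bars group means (n = 2 each). Asl was at 713 and 696 CPM in PA against 374 and 451 CPM in WT, while the Arg1 mean of PA rests on replicate 1.

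Entry of ammonia into the cycle was described by Nags, Cps1 and Otc. Nags (ENSMUSG00000048217, chromosome 11, 102145513 to 102149477, plus strand, GRCm38) was at 51.0 and 48.0 CPM in PA and at 45.3 and 38.8 CPM in WT. The groups did not overlap, but the log2 fold change was only 0.23, its standard error 0.19 and its 95% interval -0.22 to 0.69 (edgeR adjusted p = 0.707). The annotation places an antisense transcript over Nags. Reads counted on the strand not used for the CPM values made up at most 1.59% of the stranded reads there. Cps1 (ENSMUSG00000025991, chromosome 1, 67123026 to 67231259, plus strand), which condenses ammonia and bicarbonate into carbamoyl phosphate, was at 4134 and 6703 CPM in PA and at 2597 and 2547 CPM in WT. Both PA livers were high, and they differed from each other by 1.62-fold while the WT livers differed by 1.02-fold. For Cps1 the log2 fold change was 1.07 (SE 0.33, 95% interval 0.30 to 1.85, edgeR adjusted p = 0.259). DESeq2 gave an adjusted p = 0.0133, and over all alternatives the adjusted p ran between 0.0102 and 0.791. Without PA replicate 1 the log2 fold change was 1.39 and the gene was called by edgeR (adjusted p = 0.0154, against 0.859% of genes called higher in that fit), and without PA replicate 2 it was 0.68 and not called (0.121).

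Otc (ENSMUSG00000031173, chromosome X, 10252305 to 10321024, plus strand) makes citrulline from carbamoyl phosphate and ornithine. It was at 790.0 and 650.1 CPM in PA and at 913 and 1013 CPM in WT. It was the only gene of the 10 with both PA values below both WT values. The log2 fold change of Otc was -0.42 (SE 0.25, interval -1.02 to 0.18, edgeR adjusted p = 0.586), and its values ran from -0.56 without PA replicate 1 to -0.29 without PA replicate 2.

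The cytosolic enzymes Ass1, Asl and Arg1 all had higher values in both PA livers than in both WT livers. Ass1 (ENSMUSG00000076441, chromosome 2, 31470207 to 31520672, plus strand), which joins citrulline and aspartate, was at 2729 and 2941 CPM in PA and at 1790 and 1148 CPM in WT. The PA livers were close to each other, and the wider spread was in WT, where the values differed by 1.56-fold. Ass1 had a log2 fold change of 0.95 (SE 0.31, interval 0.21 to 1.68, edgeR adjusted p = 0.288). DESeq2 called Ass1 (adjusted p = 0.0370), and over all alternatives the adjusted p ran between 0.0360 and 0.985. Asl (ENSMUSG00000025533, chromosome 5, 130011258 to 130029247, minus strand) splits argininosuccinate into arginine and fumarate. It was at 713 and 696 CPM in PA and at 374 and 451 CPM in WT, with a log2 fold change of 0.77 (SE 0.24, interval 0.20 to 1.35, edgeR adjusted p = 0.267, DESeq2 adjusted p = 0.0762). Leaving out any 1 library kept the log2 fold change of Asl between 0.64 and 0.92.

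Arg1 (ENSMUSG00000019987, chromosome 10, 24915221 to 24927484, minus strand), which releases urea from arginine, was at 3995 and 1782 CPM in PA and at 1769 and 1688 CPM in WT. PA replicate 1 was 2.24 times PA replicate 2, and PA replicate 2 stood just above the WT livers. Its log2 fold change of 0.74 had a standard error of 0.40 (edgeR adjusted p = 0.541). Without PA replicate 1 it was 0.049, and without PA replicate 2 it was 1.21 and called (adjusted p = 0.0186, with 1.6% of genes called higher in that fit and a range of 0.0186 to 0.999 over the alternatives). The difference in Arg1 therefore rests on 1 mouse.

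Summed over the 5 enzymes of the cycle, from Cps1 to Arg1, CPM came to 12360.5 and 12771.8 in the PA libraries and to 7442.9 and 6846.98 in the WT libraries. The sums of the PA libraries were close although their makeup differed, with more Arg1 in replicate 1 and more Cps1 in replicate 2. The 3 cytosolic enzymes summed to 7437 and 5419 CPM in PA and to 3933 and 3287 CPM in WT.

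Upstream sequence is shown for Ass1 and Otc, an enzyme with higher values in both PA livers and the gene with lower values in both. RefSeq start sites (GRCm38.p6) were matched by symbol for 6 of the 10 genes. Each run below is the 250 bases before the RefSeq start, on the gene's own strand, 5′ to 3′, with motif matches in capitals. The Ass1 window is chr2:31470020-31470269, plus strand, and its last 63 bases lie inside the gene as GENCODE M21 draws it. The Otc window is chrX:10252055-10252304, plus strand.
Ass1: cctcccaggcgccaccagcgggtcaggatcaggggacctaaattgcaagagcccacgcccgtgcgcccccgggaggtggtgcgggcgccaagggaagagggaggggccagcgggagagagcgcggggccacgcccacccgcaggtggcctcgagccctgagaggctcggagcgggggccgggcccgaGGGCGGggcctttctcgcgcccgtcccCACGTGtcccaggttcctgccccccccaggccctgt
Otc: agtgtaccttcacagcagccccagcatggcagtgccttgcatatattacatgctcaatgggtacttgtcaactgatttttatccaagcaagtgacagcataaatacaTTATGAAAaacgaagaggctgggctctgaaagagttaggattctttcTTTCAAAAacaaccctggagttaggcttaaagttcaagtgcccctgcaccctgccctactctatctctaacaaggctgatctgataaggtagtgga

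These windows differed in base composition. GC content was 75.6% for Ass1 and 43.6% for Otc, beside a median of 52.4% over 32851 promoter windows of the same length. Searched on both strands, Ass1 held 1 GC box GGGCGG, starting at -63 and found in 32.7% of all windows. It also held 1 E-box CACGTG, starting at -36 and found in 6.02%. Both lie in the last 63 bases, inside the gene as GENCODE M21 draws it. Otc held 2 matches to the C/EBP pattern TTNCNNAA, found in 36.8% of windows. No capitals overlap, and neither window held TATAA (22.8% of windows), CCAAT (33.8%), the CRE core TGACG (17.8%) or CAAAG (48.6%). A match describes letters only.

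The 2 mitochondrial carriers did not separate PA from WT. Slc25a15 (ENSMUSG00000031482, chromosome 8, 22375551 to 22398597, minus strand), which exchanges ornithine for citrulline, was at 373 and 297 CPM in PA and at 317 and 237 CPM in WT. PA replicate 2 lay between the WT values, and the log2 fold change was 0.27 with a 95% interval of -0.34 to 0.89 (edgeR adjusted p = 0.754). Slc25a13 (ENSMUSG00000015112, chromosome 6, 6041218 to 6217173, minus strand) encodes citrin, the aspartate-glutamate carrier of liver that supplies aspartate to ASS1. It was at 143 and 156 CPM in PA and at 123 and 169 CPM in WT. Its PA values lay between those of WT, and the log2 fold change was 0.031, with an interval of -0.54 to 0.60 that leaves room for a change of up to 1.51-fold upward (edgeR adjusted p = 0.979).

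The ammonia-releasing enzymes also overlapped between the groups, Gls2 only just, at 385.881 CPM in PA replicate 2 and 385.905 CPM in WT replicate 1. Gls2 (ENSMUSG00000044005, chromosome 10, 128194457 to 128210004, plus strand), the liver-type glutaminase, was at 409.7 and 386 CPM in PA and at 386 and 329 CPM in WT, with a log2 fold change of 0.15 and an interval of -0.39 to 0.70 (edgeR adjusted p = 0.858). Glud1 (ENSMUSG00000021794, chromosome 14, 34310727 to 34345265, plus strand), glutamate dehydrogenase, was at 1031 and 904 CPM in PA and at 1058 and 833 CPM in WT, with a log2 fold change of 0.033 and an interval of -0.59 to 0.65 (edgeR adjusted p = 0.980). For Glud1 the RSEM effective length, an average weighted by estimated isoforms, was 2678 and 2559 bases in PA and 2355 and 2416 bases in WT. Its values per length therefore stand lower against CPM in PA than in WT.

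**Figure D2:**
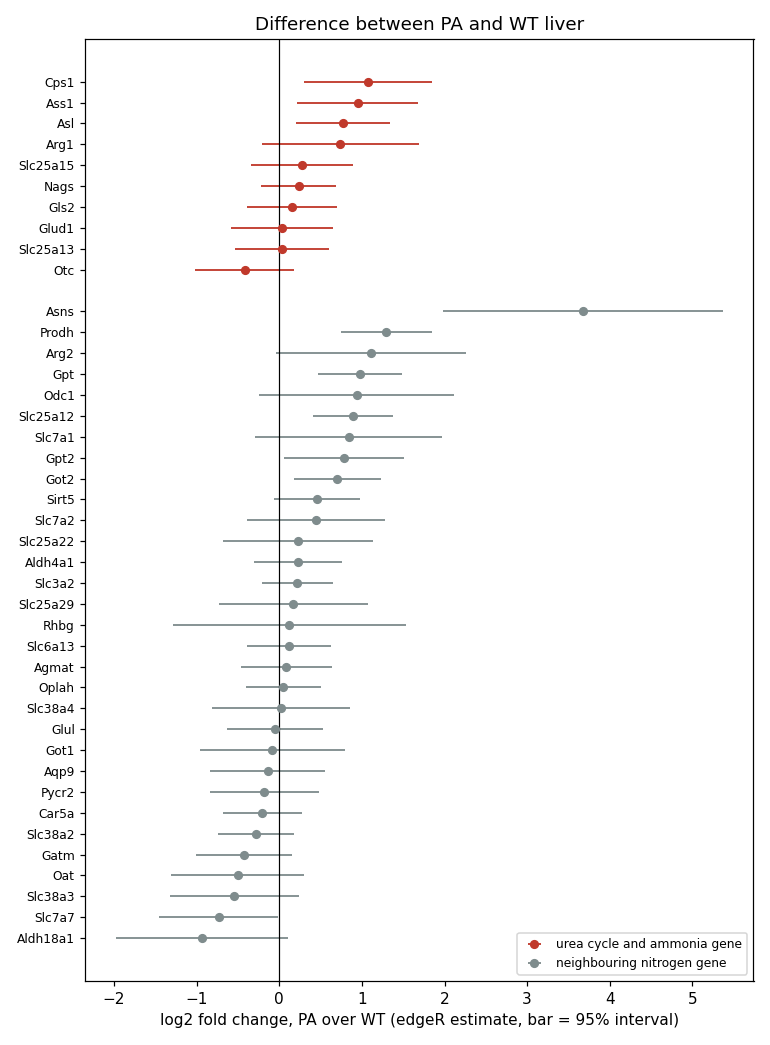
Log2 fold change, PA over WT, from edgeR (points) with 95% intervals (bars) for the 10 urea cycle and ammonia genes in red and neighbouring nitrogen genes in grey, sorted within each set. Intervals of Cps1, Ass1 and Asl lie above 0 before adjustment over all genes, and that of Otc spans 0.

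Levels between genes were compared per length, in the TPM values deposited by the authors. Arg1 had the highest mean level and Ass1 the next in each group. Arg1 averaged 2037 ± 813 TPM in PA and 1476 ± 109 TPM in WT, and Ass1 1996 ± 409 TPM in PA and 1189 ± 413 TPM in WT (SD, n = 2 each). Cps1 averaged 959 ± 460 TPM in PA and 511 ± 24.8 TPM in WT. Within libraries, Arg1 stood above Ass1 in both WT livers, at 1554 against 1481 TPM and 1399 against 896 TPM. In PA the order differed between mice, with Arg1 at 2612 and Ass1 at 1706 TPM in replicate 1. In PA replicate 2 they were at 1462 and 2285 TPM, so their order is not resolved in PA. Asl and Otc changed places in the order of the 10 genes: Asl had the rank 4 in PA, at 433 and 519 TPM, and 6 in WT, at 284 and 331 TPM. Otc had the rank 6 in PA, at 299 and 307 TPM, and 4 in WT, at 460.1 and 485 TPM. Glud1, next to both in rank, stood between them in PA at 335 and 382 TPM, while in WT its range of 379 to 521 TPM enclosed that of Otc. At the lower end, Gls2 averaged 208 TPM in PA and 223 TPM in WT, Slc25a15 97.7 TPM in PA and 94.8 TPM in WT, and Slc25a13 49.2 TPM in PA and 55.6 TPM in WT. Nags was lowest, at 25.3 and 30.3 TPM in PA and 30.5 and 24.1 TPM in WT. TPM is a share of each library, and mitochondrially encoded genes took 20.7 and 17.1% of TPM in PA and 10.6 and 11.7% in WT, so TPM of nuclear genes is not compared between the groups here.

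Ratios between genes within a library do not depend on that share. Cps1 over Otc, consecutive steps, was 2.12 and 4.18 in PA and 1.15 and 1.02 in WT. Cps1 thus stood well above Otc in both PA livers and close to it in both WT livers. Nags over Cps1 was 0.0399 and 0.0236 in PA and 0.0576 and 0.0487 in WT, so Nags transcript was lower relative to Cps1 transcript in both PA livers. Ass1 over Asl was 3.94 and 4.40 in PA and lay within the range of WT, 5.21 and 2.71. With 2 mice in each group, an exact two-sided permutation test cannot give a p below 0.333, which is the value for Cps1 over Otc and Nags over Cps1 (exact p = 1 for Ass1 over Asl).

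Paralogs of the members were compared in the same way. Slc25a12 encodes aralar, the other aspartate-glutamate carrier, which dominates in tissues other than liver. Slc25a13 over Slc25a12 was 4.45 and 4.87 in PA and 8.72 and 11.5 in WT (exact permutation p = 0.333, the smallest possible). The ratio was lower in both PA livers, with Slc25a13 at like levels and Slc25a12 at 20.2 and 24.2 CPM in PA against 11.4 and 12.5 CPM in WT (log2 fold change 0.89, SE 0.21, edgeR adjusted p = 0.138, range over the alternatives 0.0196 to 0.662). Arg2, the mitochondrial arginase, had 17 and 15 counts in PA and 8 and 7 counts in WT, so Arg1 made up nearly all arginase transcript in every library. Slc25a2, a second ornithine carrier gene, had at most 3 counts in any library.

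**Figure D3:**
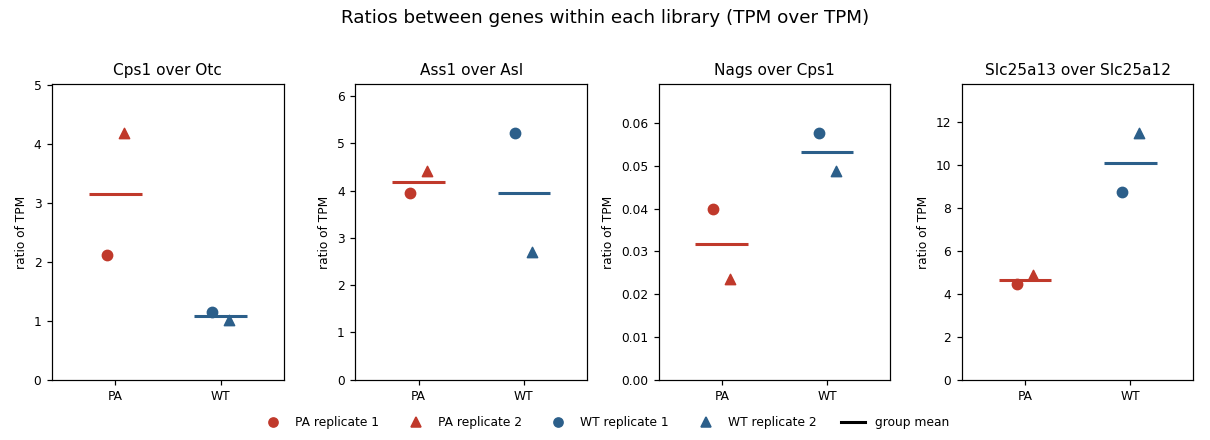
Ratio of TPM between 2 genes within each library (vertical axes from 0), PA in red and WT in blue, circles replicate 1, triangles replicate 2 and bars group means (n = 2 each). Cps1 over Otc was higher and Nags over Cps1 and Slc25a13 over Slc25a12 lower in both PA livers, while Ass1 over Asl overlapped.

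A wider list of 38 nitrogen genes held transaminases, proline and ornithine enzymes and amino acid transporters, and 32 were tested. Of these, 21 had higher and 11 lower values in PA, and the median log2 fold change was 0.15 (0.0069 without PA replicate 1 and 0.22 without WT replicate 2). edgeR and limma-voom each called 0, DESeq2 called 3 higher and 0 lower, against 1.22% higher and 1.62% lower among all genes, and at an edgeR unadjusted p under 0.05 6 were higher and 1 lower, against 5.88% and 5.93%. Prodh, proline dehydrogenase, was at 309.7 and 303 CPM in PA and at 112 and 138 CPM in WT (log2 fold change 1.30, SE 0.23, edgeR adjusted p = 0.0690, DESeq2 adjusted p = 6.75e-05, with a range of 6.75e-05 to 0.556 over the alternatives). Its PA livers nearly coincided, and edgeR called it without PA replicate 1 (adjusted p = 0.0235) and without PA replicate 2 (0.0189). Gpt, the alanine transaminase that feeds amino groups to glutamate, was at 294 and 296 CPM in PA and at 149 and 150.0 CPM in WT. The replicates of Gpt agreed closely in both groups (log2 fold change 0.98, SE 0.22, edgeR adjusted p = 0.124, DESeq2 adjusted p = 0.00493, range over the alternatives 0.00493 to 0.745; edgeR without PA replicate 1 0.0432 and without PA replicate 2 0.0377).

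Asns, which uses glutamine to make asparagine, was the third gene called by DESeq2. It had 92 and 33 counts in PA and 4 and 6 counts in WT, and its log2 fold change of 3.67 had a 95% interval of 1.98 to 5.37 (edgeR adjusted p = 0.0899). edgeR called it without PA replicate 2 (adjusted p = 0.00427), and not without PA replicate 1 (0.0868), with a range of 1.47e-11 to 0.177 over the alternatives. The other genes of the wider list at an unadjusted p under 0.05, named after their values were seen, were Gpt2 and Got2, mitochondrial transaminases, at log2 fold changes of 0.79 and 0.70, and the transporter gene Slc7a7 at -0.73. The edgeR adjusted p was 0.377 for Gpt2, 0.269 for Got2 and 0.414 for Slc7a7.

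Other genes around the cycle that handle ammonia, ornithine, glutamate or bicarbonate differed little or varied between mice. Glul, glutamine synthetase, was at 451 and 574 CPM in PA and at 530 and 534 CPM in WT (log2 fold change -0.054, interval -0.64 to 0.53, edgeR adjusted p = 0.960). Oat, ornithine aminotransferase, was at 457 and 819 CPM in PA and at 1031 and 777 CPM in WT (log2 fold change -0.50, edgeR adjusted p = 0.635). Without PA replicate 2 the log2 fold change of Oat was -0.99, and without PA replicate 1 it was -0.14. Slc25a22, a mitochondrial glutamate carrier, was at 131 and 55.6 CPM in PA, which enclosed the WT values of 88.5 and 70.8 CPM. Car5a, the mitochondrial carbonic anhydrase that supplies bicarbonate to CPS1, was at 58.3 and 68.4 CPM in PA and at 68.5 and 77.4 CPM in WT (log2 fold change -0.20, interval -0.68 to 0.28, edgeR adjusted p = 0.764). Both Car5a values in PA lay below both in WT, the higher PA value only just, while the groups overlapped for Glul, Oat and Slc25a22.

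**Figure D4:**
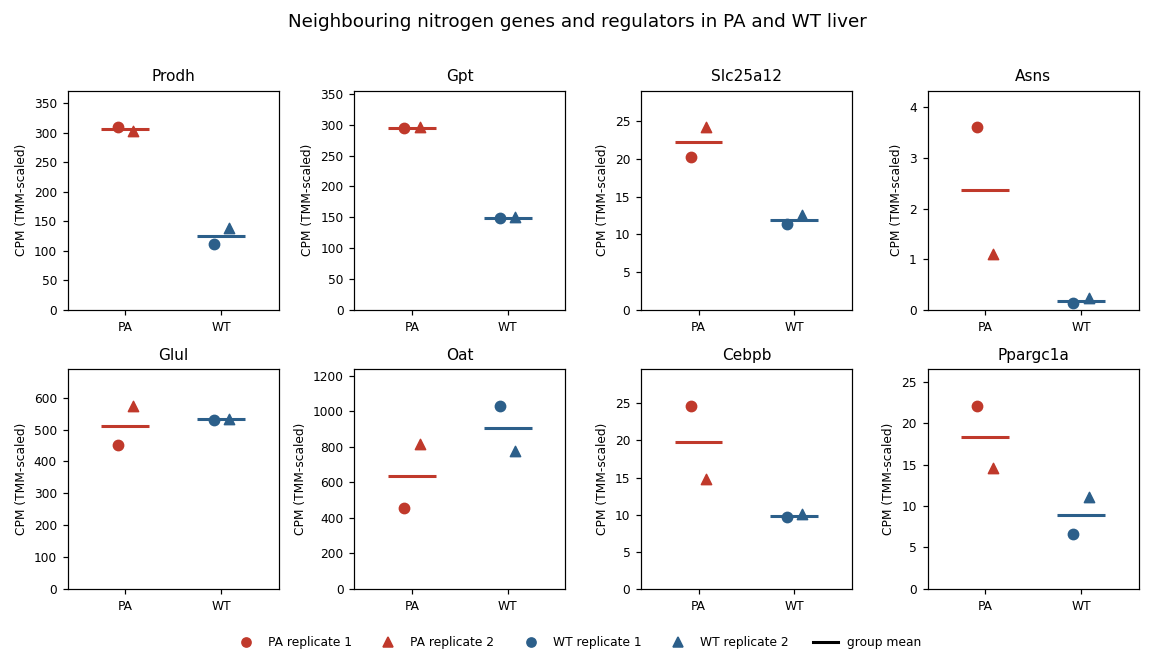
CPM on TMM-scaled library sizes (vertical axes from 0) of 6 neighbouring nitrogen genes and 2 regulators, PA in red and WT in blue, circles replicate 1, triangles replicate 2 and bars group means (n = 2 each). Prodh and Gpt show PA values close together and above WT, at 309.7 and 303 CPM in PA against 112 and 138 CPM in WT for Prodh, and at 294 and 296 CPM in PA against 149 and 150.0 CPM in WT for Gpt.

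Among 13 genes known to regulate urea cycle transcription or the signals that reach it, all tested, 7 had higher and 6 lower values, with a median log2 fold change of 0.012. edgeR, DESeq2 and limma-voom called 0 of them. At an edgeR unadjusted p under 0.05, 2 were higher and 1 lower, against 5.88% higher and 5.93% lower among all tested genes. Cebpb, a C/EBP transcription factor, was at 24.7 and 14.8 CPM in PA and at 9.68 and 10.1 CPM in WT (log2 fold change 1.0, edgeR adjusted p = 0.209). It was 1.32 and called without PA replicate 2 (adjusted p = 0.0173), and 0.59 without PA replicate 1 (range over the alternatives 0.00635 to 0.568). Ppargc1a, a coactivator of the fasting response, was at 22.1 and 14.6 CPM in PA and at 6.65 and 11.1 CPM in WT (log2 fold change 1.05, edgeR adjusted p = 0.251, range over the alternatives 0.00321 to 0.831). Both were highest in PA replicate 1, which had more Arg1 but less Cps1 and Ass1 than PA replicate 2. A link to these genes was not tested.

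Zonation markers were examined because the cycle is periportal. Of 14 periportal markers, 8 had higher and 6 lower values (median log2 fold change 0.20), and of 15 pericentral markers 6 had higher and 9 lower values (median -0.054). The periportal sums were nevertheless lower in both PA livers, at 4968 and 5081 CPM in PA and 6761 and 5624 CPM in WT. Pck1 was the most abundant periportal marker. Pericentral sums overlapped, at 7768 and 10030 CPM in PA and 9144 and 10820 CPM in WT. edgeR and limma-voom called none of either list. At an edgeR unadjusted p under 0.05 there were 2 higher and 2 lower periportal and 1 higher and 1 lower pericentral genes. Among all tested genes, 5.88% were higher and 5.93% lower at that threshold. DESeq2 called 1 higher and 1 lower periportal gene and 1 lower pericentral gene, against 1.22% higher and 1.62% lower among all genes. The higher periportal call of DESeq2 was Hsd17b13, at 430 and 394 CPM in PA and 98.9 and 226 CPM in WT. Its log2 fold change was 1.34 (DESeq2 adjusted p = 0.00779, edgeR adjusted p = 0.228). The periportal Sdsl was at 14.3 and 9.29 CPM in PA and at 6.42 and 4.56 CPM in WT (edgeR adjusted p = 0.197). DESeq2 did not call Sdsl (adjusted p = 0.0739). The lower periportal call of DESeq2 was Ctsc, at 50.3 and 104 CPM in PA and at 216 and 161 CPM in WT (DESeq2 adjusted p = 0.0119, edgeR adjusted p = 0.220). The pericentral Cyp1a2 was at 303 and 459 CPM in PA and at 177 and 234 CPM in WT (log2 fold change 0.89, edgeR adjusted p = 0.288). Values thus went both ways within each list.

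Markers of other cell types and mitochondrially encoded RNA are given here with their values, and their part in these results was not tested. Among all tested genes, edgeR called 0.264% higher and 0.548% lower, DESeq2 1.22% and 1.62%, and limma-voom 0.604% in either direction. At an edgeR unadjusted p under 0.05, 5.88% were higher and 5.93% lower. Summed levels of macrophage, endothelial, erythroid and lymphoid markers were lower, and those of cholangiocyte markers and mitochondrially encoded genes higher, in both PA livers than in both WT livers, while the sums overlapped for hepatocyte and stellate markers. Of 9 tested hepatocyte markers, 5 had higher and 4 lower values, 0 were called by edgeR, DESeq2 or limma-voom, and 1 was lower at an edgeR unadjusted p under 0.05; they summed to 147161 and 177245 CPM in PA and to 159247 and 178450 CPM in WT, most of it Alb. Macrophage markers had lower values for 9 of 10 genes (DESeq2 calling 2 and edgeR 0, with 5 lower at an edgeR unadjusted p under 0.05), with sums of 314 and 448 CPM in PA and 693 and 611 CPM in WT, and Clec4f the most abundant. Erythroid markers had lower values for all 5 tested genes (edgeR calling 2, DESeq2 4 and limma-voom 1, with 4 lower at an edgeR unadjusted p under 0.05), with sums of 11.9 and 16.8 CPM in PA and 88.5 and 47.5 CPM in WT, mostly Hbb-bs. Endothelial markers summed to 268 and 287 CPM in PA and to 353 and 327 CPM in WT (8 of 10 lower, Clec4g the most abundant), and stellate markers to 561 and 548 CPM in PA and 558 and 539 CPM in WT (8 of 10 lower, mostly Dcn). Cholangiocyte markers summed to 168 and 145 CPM in PA and to 114 and 122 CPM in WT (6 of 7 tested higher, mostly Tm4sf4), and lymphoid markers to 8.56 and 16.0 CPM in PA and 19.9 and 16.6 CPM in WT (6 of 6 tested lower, mostly Ptprc). At an edgeR unadjusted p under 0.05, 3 cholangiocyte markers were higher and 1 was lower. At that threshold, 2 lymphoid, 1 endothelial and 1 stellate marker were lower and 0 higher. Of 8 pancreas markers, 6 had 0 counts in every library, and Cela1 made up nearly all of the rest. Pancreas markers summed to 11.4 and 7.77 CPM in PA and to 29.2 and 16.8 CPM in WT. The 1 tested had a log2 fold change of -1.27 and was called by DESeq2, but not by edgeR or limma-voom. All 13 mitochondrially encoded genes had higher values, with mt-Co1 the most abundant. edgeR called 1 of them, DESeq2 8 and limma-voom 1, and 9 were higher at an edgeR unadjusted p under 0.05. They took 13.6 and 8.98% of counts in PA and 6.90 and 7.38% in WT. With those genes left out before scaling, the log2 fold changes were 1.08 for Cps1, 0.96 for Ass1, 0.78 for Asl and -0.41 for Otc, much as with them.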

How the data were processed

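Per the submitters' processing notes, STAR 2.7.6a, RSEM 1.3.3 and GRCm38 were used; the annotation release is not given in the sources used here. Each library had a table of raw read counts per gene deposited by the authors in STAR layout, and an RSEM table that holds TPM, FPKM and expected counts, per the file headers, beside mean transcript lengths. Multimapping reads do not enter the STAR counts. Opposite-strand counts, 97.0 to 97.1% of stranded counts, were the main measure. The 4 summary lines, 28.1 to 34.3% of reads, were left out. GENCODE M21 matched 55227 of 55487 identifiers. RSEM expected counts of the members were 0.782 to 0.930 of STAR unstranded counts.

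PA and WT, grouped by sample titles, were compared with edgeR 4.0.16 in R 4.3.3 (quasi-likelihood test, TMM, filterByExpr, prior count 0.125, genotype the only term), tested on simulated data. DESeq2 1.42.0 and limma 3.58.1 were alternatives on the same STAR counts. RSEM expected counts were rounded and fitted with edgeR. Standard errors (SE) were derived from the test, as the absolute log2 fold change over the square root of the edgeR F statistic. Intervals are at 95% from that standard error and the degrees of freedom of the test. Members and lists were chosen with earlier results of these data known. Named genes were the members, Pcca, listed paralogs and partners, and the called or lowest-p genes of each list (4 for nitrogen genes, 2 for regulators and zonation lists). A hepatocyte marker, Tf, had no match. Some listed genes are counted in their lists but not reported here by name. Replicate numbers in the titles are not stated to pair mice.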

Additional observations from a re-analysis of the deposited data

How the results depend on the processing

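Groups of 2 mice limit precision: absence of a call does not show equal levels. Leaving out 1 library leaves a lone mouse, assumed to vary like the other group. Over the 14 other fits, the higher calls among the 10 urea cycle and ammonia genes, 0 with edgeR, numbered 2 with DESeq2, 2 with no filter on low counts, and 0 to 1 when leaving out 1 library; lower calls were 0 in each. For neighbouring nitrogen genes the higher calls, 0 with edgeR, numbered 3 with DESeq2, 5 with no filter, 2 with the replicate block and 0 to 3 without 1 library. Over all tested genes edgeR called 38 higher and 79 lower; the counts were 185 and 245 with DESeq2, 414 and 488 with no filter, 50 to 239 and 105 to 261 without 1 library. The replicate block, which uses title numbers as pairs, gave 126 and 192. Deviations of same-numbered libraries correlated at -0.0907 across genes, so the numbers are not shown to pair mice; the block called no member, and Prodh (adjusted p = 0.0297) and Asns (0.0104) among neighbours.

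Directions of Cps1, Ass1, Asl, Arg1, Otc, Nags, Slc25a15 and Gls2 held in all 14 fits. Slc25a13 turned to -0.010 with library sizes only and ran from -0.19 to 0.29 without 1 library, and Glud1 to -0.017 and from -0.12 to 0.21. Glul ran from -0.24 to 0.12 and Slc25a22 from -0.51 to 0.72 without 1 library. The cause was not tested. The mean PA ratio of Ass1 over Asl was 3.61 from STAR counts per effective length, against 4.17 from TPM, a move larger than the SD of the PA libraries (0.33). The other PA ratios given, and all of them from FPKM, moved by less than that SD of their own.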
